A study of Mus musculus with 21 samples.

Results

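*Trp53inp1* and 9 genes of the autophagy machinery were examined in IgA+ plasma cells (PCs) of the small intestine, 10 of the 53801 genes counted. *Trp53inp1* was taken up because it was among the most abundant transcripts that are not immunoglobulin transcripts in each group of mice, so its level and rank are given here as a description with no test, and only differences between groups were tested. The other 9 genes were chosen by their known role: its relative *Trp53inp2*, the cargo receptor *Sqstm1*, the ATG8 family genes *Map1lc3a*, *Map1lc3b*, *Gabarap* and *Gabarapl1*, the conjugation genes *Atg5* and *Atg7*, and the kinase gene *Ulk1*. The choice was made with earlier results of these data known. All 10 passed a minimum of 10 counts in total, as did 20256 of all genes.

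Autophagy is the process by which a cell wraps parts of its own cytoplasm in a double membrane and delivers them to the lysosome for breakdown. Ulk1 is the kinase that starts it under the control of MTOR and AMPK, and Atg7 and Atg5 belong to the conjugation system that fixes the small ATG8 proteins (the LC3 and GABARAP families) to the growing membrane. Sqstm1 (p62) binds both ubiquitinated cargo and ATG8 proteins and is itself degraded. Trp53inp1 is a stress protein encoded by a p53 target gene, and it and Trp53inp2 both bind ATG8 proteins. PCs secrete antibody at a high rate, and loss of Atg5 in the B cell lineage is known to impair the survival of long-lived PCs. A transcript level gives no measure of the flow of material through the pathway.

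The RNA came from CD138+ IgA+ PCs sort-purified from the small intestinal lamina propria of 21 C57BL/6 mice, with 1 library per mouse. All mice carried floxed *Arntl*, the gene of the core clock protein Bmal1. Control mice (12) had no Cre (Mb1Cre-/- x Arntlfl/fl) and were sampled at Zeitgeber time ZT0, which is lights on, in 6 mice and 12 hours later at ZT12 in 6 mice. Knockout mice (9) were littermates with Cre in 1 copy of the Mb1 locus (Mb1Cre+/- x Arntlfl/fl), with 4 sampled at ZT0 and 5 at ZT12. The Mb1 locus is the gene *Cd79a*, which is active in the whole B cell lineage, so the deletion was not made in PCs alone. Mice were fed ad libitum under 12 hours of light and 12 hours of darkness. The design asks whether transcript levels in PCs differ between these times and whether the difference depends on Bmal1 in the B cell lineage. Genotype follows the titles of the samples, because for 8 of the 9 knockout mice the separate genotype label gives that of the controls.

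*Arntl*, the targeted gene, ranged from 4.00 to 8.36 CPM (counts scaled to library size and normalized by the TMM method) in control mice and from 3.11 to 6.47 CPM in knockout mice. Within ZT0 the genotypes did not overlap, at 6.83 to 8.36 CPM in control and 4.08 to 6.47 CPM in knockout mice, and within ZT12 they did, at 4.00 to 5.56 and 3.11 to 4.93 CPM. The counts cover the whole gene and do not resolve its floxed part. *Cd79a* separated the genotypes as labelled, with at least 385.7 CPM in every control library and at most 276.1 CPM in every knockout library. All 12 PC markers were above 1 CPM on average, among them *Sdc1* (CD138) at 461.7 to 708.2 CPM, while the 11 markers of other B cells summed to 14.2 to 34.7 CPM per library. Libraries held 14471018 to 22785835 counts. In 4 libraries the immunoglobulin genes took a larger share of the counts, at 63.6%, 59.5% and 59.1% in control ZT12 replicates 2, 4 and 5 and 59.4% in knockout ZT0 replicate 3, against at most 55.7% in the other 17. The 17 epithelial markers summed to 1140 CPM in control ZT12 replicate 5 and 676 CPM in knockout ZT12 replicate 5 and to at most 281 CPM elsewhere. In these bulk samples, fewer cells with a transcript and less of it per cell cannot be told apart.

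*Trp53inp1* (ENSMUSG00000028211, chr4:11156431-11174379, + strand, GRCm38) held between 42882 and 94639 counts per library. On the scale of CPM, with no correction for length, its mean over the 21 libraries was 3828 ± 416.5 CPM (SD, n = 21). It ranked at position 3 of 53372 genes that are not immunoglobulin genes by mean CPM, and between 2 and 8 within single libraries. Between 0.219% and 0.460% of all counts and between 0.601% and 1.02% of counts outside the immunoglobulin genes fell on it. The genes next to it in this order were those of secretory cells and mitochondria. *Jchain*, which links IgA into polymers, averaged 48820 CPM, and the chaperone gene *Hspa5* of the endoplasmic reticulum averaged 4033 CPM and stood above *Trp53inp1* in 11 of the 21 libraries. Below it came *mt-Co1* at 3443 CPM and the chaperone gene *Hsp90b1* at 3295 CPM, each above *Trp53inp1* in 4 libraries. Per kilobase of gene length, *Trp53inp1* ranked at position 16, and between 12 and 37 within single libraries.

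The levels of the 10 genes were set against each other per kilobase. On that scale *Trp53inp1* was the highest of the 10 genes at 591.3 ± 64.3 CPM per kb, followed by *Sqstm1* at 155.2 ± 22.9 CPM per kb (SD, n = 21 for both). *Gabarap* was the highest of the ATG8 genes at 44.6 ± 9.73 CPM per kb, above *Map1lc3b* at 16.2 ± 1.36, *Map1lc3a* at 12.5 ± 1.98 and *Gabarapl1* at 9.53 ± 1.38 CPM per kb. *Trp53inp2* lay at 21.1 ± 2.58 CPM per kb, far below its relative. The conjugation gene *Atg5* reached 11.2 ± 1.83 CPM per kb, *Ulk1* 9.39 ± 1.73 and *Atg7*, the lowest, 2.50 ± 0.317 CPM per kb. From *Trp53inp1* down to *Map1lc3b* each gene was above the next in all 21 libraries, and *Ulk1* was above *Atg7* in all 21. The genes between were not separated by their spread: *Map1lc3a* exceeded *Atg5* in 15 libraries, *Atg5* exceeded *Gabarapl1* in 15 and *Gabarapl1* exceeded *Ulk1* in 11.

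**Figure D1:**
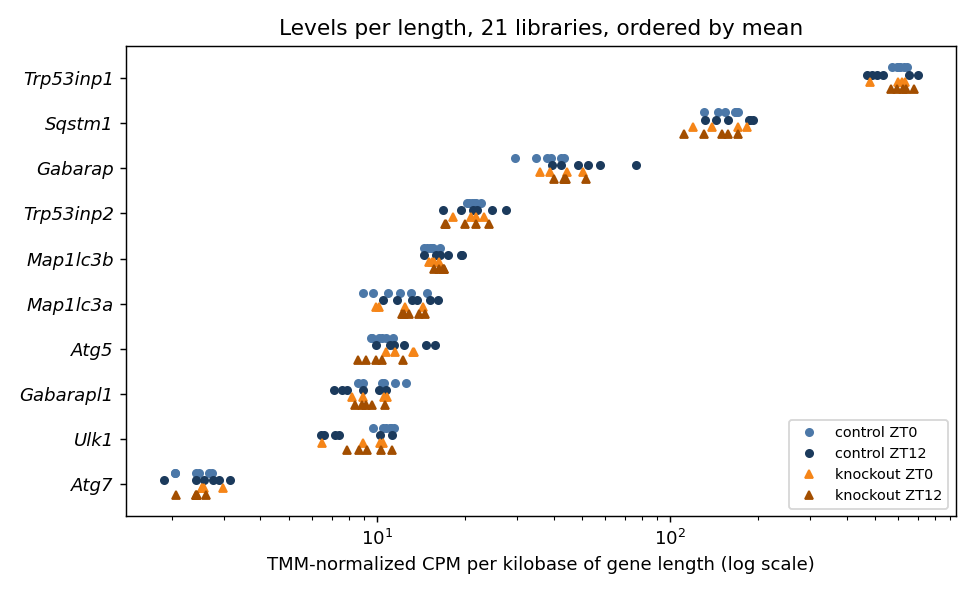
TMM-normalized CPM per kilobase of gene length (log axis) of the 10 genes, with 1 point per library, coloured by group and ordered by the mean over 21 libraries. *Trp53inp1* lies between 468.5 and 699.2 CPM per kb, above every library of *Sqstm1* (111.3 to 191.3), while *Map1lc3a*, *Atg5*, *Gabarapl1* and *Ulk1* overlap.

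Some of these counts may be shared with other genes, since the kit does not mark strand and the counting settings are not given in the sources used here. Of the 150-base stretches of annotated transcripts, 11.9% of those of *Sqstm1* also occurred in *Mrnip* (237 counts in all, against 180900 for *Sqstm1*). For *Gabarapl1* 13.2% occurred in *1700101I11Rik* (53 counts against 6736) and for *Map1lc3b* 1.02% occurred in *Gm6055*. The other 7 genes, *Trp53inp1* among them, shared none.

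By time of day in control mice, none of the 10 genes was called with edgeR's quasi-likelihood test at a Benjamini-Hochberg adjusted p below 0.05 over all genes tested, where 1.73% of all genes were called. At an unadjusted p below 0.05 the count was 5, where all genes gave 18.1%. These were *Gabarap*, *Atg5* and *Map1lc3b* with a positive and *Ulk1* and *Gabarapl1* with a negative difference of ZT12 against ZT0. DESeq2 called 1 of the 10, *Gabarap*, where it called 8.5% of all genes. The control groups overlapped for all 10 genes, and for 1.6% of all genes they did not. The median log2 fold change over the 10 genes was 0.11, against 0.01 over all genes tested.

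*Trp53inp1* had a lowest, median and highest level of 3695, 3912 and 4163 CPM in control mice at ZT0 and of 3034, 3365 and 4527 CPM at ZT12. The ZT12 mice reached both lower and higher than the ZT0 mice, and their SD was 615.4 CPM against 162.8 CPM. The fitted log2 fold change was -0.12 (SE 0.10, 95% interval -0.32 to 0.08, adjusted p = 0.535). An exact two-sided permutation test over all 924 splits of the 12 mice gave p = 0.197 (0.394 after Benjamini-Hochberg adjustment over 4 pairs of groups, smallest p possible 0.00217).

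In knockout mice *Trp53inp1* was at 3862, 4086, 3098 and 4009 CPM at ZT0 and at 3680, 4044, 4381, 3856 and 4136 CPM at ZT12. Replicate 3 at ZT0 was the lowest, and the other knockout mice of both times lay within a common range. The log2 fold change was 0.09 (SE 0.11, 95% interval -0.14 to 0.33, adjusted p = 0.864). The difference between knockout and control in the effect of time was 0.22 (SE 0.15, 95% interval -0.09 to 0.52, adjusted p = 0.591). Exact permutation tests gave p = 0.357 for time in knockout mice, p = 0.505 for genotype at ZT0 and p = 0.171 for genotype at ZT12 (0.476, 0.505 and 0.394 after the same adjustment). In the edgeR fit, knockout against control differed by -0.06 at ZT0 (95% interval -0.29 to 0.16) and by 0.15 at ZT12 (-0.06 to 0.36).

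*Trp53inp2*, whose product has been described to shuttle from the nucleus to autophagosomes, was at 106.4, 112.0 and 118.8 CPM (lowest, median, highest) in control mice at ZT0 and at 88.1, 113.6 and 144.3 CPM at ZT12. As for *Trp53inp1*, the ZT12 values enclosed the ZT0 values. The log2 fold change was 0.04 (95% interval -0.18 to 0.26, adjusted p = 0.886) in control mice and -0.07 (-0.32 to 0.18, adjusted p = 0.921) in knockout mice. *Sqstm1* was at 437.4, 537.8 and 573.2 CPM at ZT0 and at 440.0, 574.5 and 641.9 CPM at ZT12 in control mice. Its ranges overlapped over most of their width, with a log2 fold change of 0.09 (95% interval -0.16 to 0.34, adjusted p = 0.741), and of -0.09 in knockout mice (-0.38 to 0.20, adjusted p = 0.909).

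**Figure D2:**
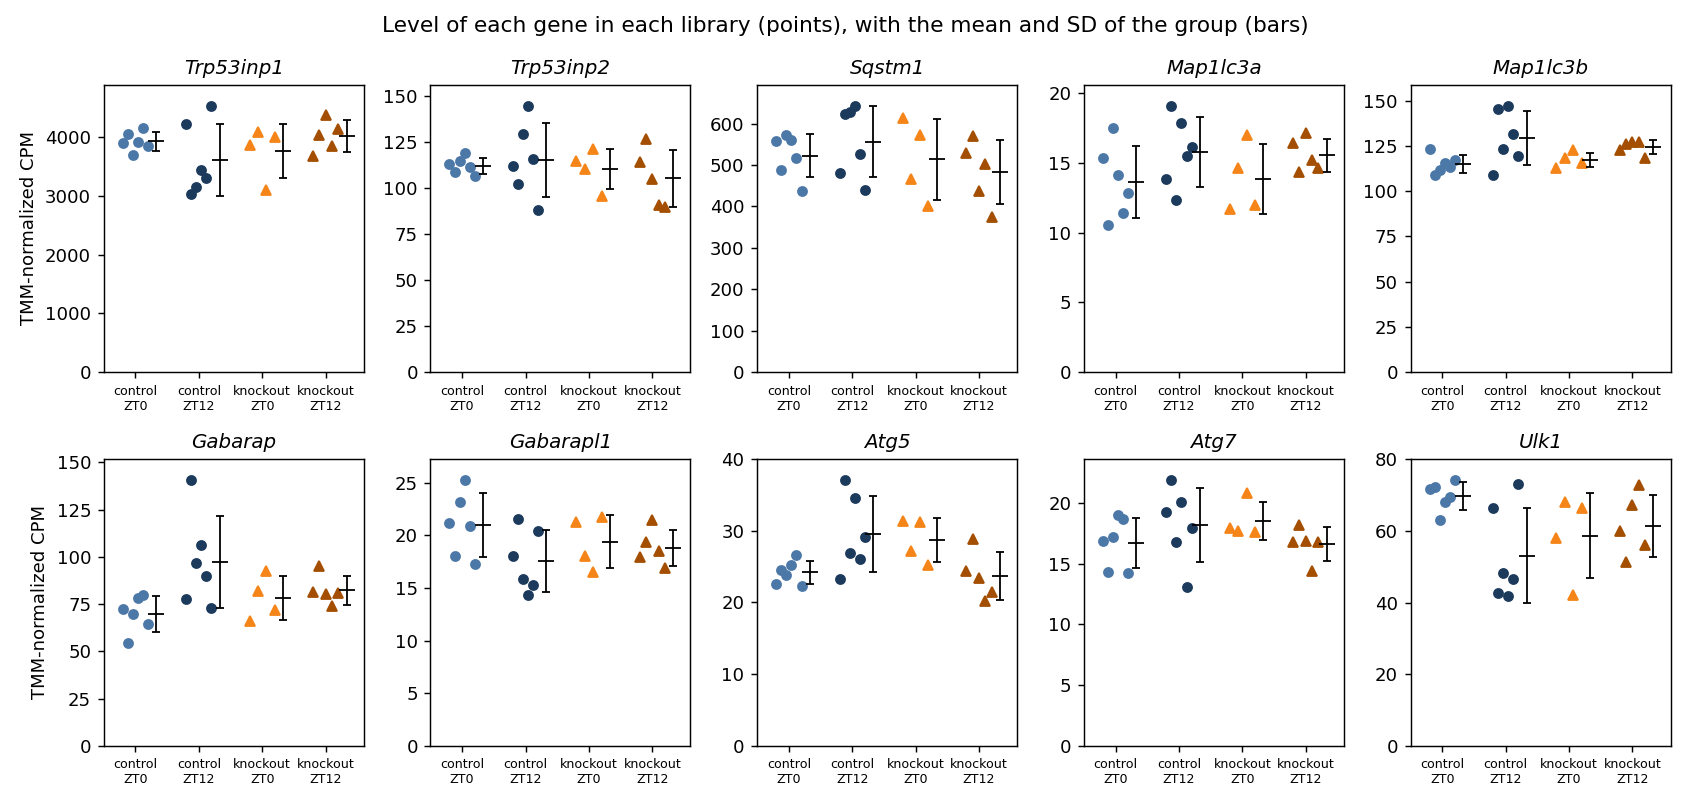
TMM-normalized CPM (linear axis from 0) of the 10 genes in each of the 21 libraries (points), by group, with the mean and SD of each group (black bars). In control mice the SD is larger at ZT12 than at ZT0 for every gene except *Map1lc3a* and *Gabarapl1*, and no gene has groups that separate fully.

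Among the ATG8 genes, *Gabarap* (chr11:69991143-69994951, + strand) had the smallest p of the 10 genes in control mice. It was at 54.5, 71.1 and 79.8 CPM (lowest, median, highest) at ZT0 and at 73.1, 93.2 and 140.7 CPM at ZT12. At ZT12, 4 of the 6 mice exceeded the highest mouse at ZT0, and the highest of all was replicate 2. Group means were 69.8 ± 9.36 and 97.4 ± 24.4 CPM (SD, n = 6 each), with a log2 fold change of 0.48 (SE 0.13, 95% interval 0.22 to 0.75, edgeR adjusted p = 0.0523). The call depended on the setting. DESeq2 gave 0.51 (adjusted p = 0.00925), and leaving out control ZT12 replicate 2 gave 0.35, the lowest of 21 such fits, whose adjusted p ranged from 0.0172 to 0.157. Without the 4 libraries of high immunoglobulin share the log2 fold change was 0.25 (adjusted p = 0.536).

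In knockout mice *Gabarap* was at 66.3, 82.1, 92.7 and 71.9 CPM at ZT0 and at 81.3, 95.1, 80.3, 74.2 and 81.0 CPM at ZT12. The ranges nearly coincided, with a log2 fold change of 0.07 (95% interval -0.23 to 0.38, adjusted p = 0.934). The knockout minus control difference in the effect of time was -0.41 (95% interval -0.81 to -0.0009, unadjusted p = 0.0495, edgeR adjusted p = 0.462) and was not called.

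The other ATG8 genes had smaller fitted differences. *Map1lc3b*, whose lipid-bound product is the usual marker of autophagosomes, was at 108.7, 114.6 and 123.3 CPM (lowest, median, highest) in control mice at ZT0 and at 109.0, 127.2 and 146.9 CPM at ZT12, a log2 fold change of 0.17 (95% interval 0.0035 to 0.33, adjusted p = 0.266). *Gabarapl1* was at 17.3, 21.04 and 25.3 CPM at ZT0 and at 14.3, 17.0 and 21.5 CPM at ZT12, a log2 fold change of -0.25 (-0.49 to -0.02, adjusted p = 0.239). *Map1lc3a* was at 10.6, 13.5 and 17.5 CPM at ZT0 and at 12.4, 15.8 and 19.1 CPM at ZT12, with 0.21 (-0.05 to 0.48, adjusted p = 0.396). The fitted values of these homologues thus had opposite signs, and none passed the threshold. In knockout mice the log2 fold changes of *Map1lc3b*, *Map1lc3a* and *Gabarapl1* were 0.08, 0.17 and -0.05, with adjusted p from 0.796 to 0.957.

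*Ulk1* (chr5:110784488-110810097, - strand) had the most negative difference of the 10 genes in control mice. It was at 63.0, 70.6 and 74.3 CPM (lowest, median, highest) at ZT0 and at 41.7, 47.4 and 73.0 CPM at ZT12. At ZT12 it was below the lowest ZT0 mouse in replicates 2, 3, 4 and 5, at 42.8, 48.1, 41.7 and 46.7 CPM, while replicates 1 and 6 lay within the ZT0 range. The log2 fold change was -0.39 (SE 0.13, 95% interval -0.67 to -0.12, edgeR adjusted p = 0.123). It was called when control ZT12 replicate 1 was left out (-0.47, adjusted p = 0.0404) or replicate 6 was left out (-0.50, adjusted p = 0.0267), which are those same mice. Without the 4 libraries of high immunoglobulin share it was -0.16 (adjusted p = 0.740).

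In knockout mice *Ulk1* was at 58.0, 68.0, 42.2 and 66.4 CPM at ZT0 and at 60.0, 51.2, 67.2, 72.9 and 56.2 CPM at ZT12. The ranges overlapped, and the lowest mouse was replicate 3 at ZT0. The log2 fold change was 0.07 (95% interval -0.25 to 0.38, adjusted p = 0.944), and the difference between the genotypes in the effect of time was 0.46 (0.04 to 0.88, unadjusted p = 0.0319, edgeR adjusted p = 0.451).

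*Atg5* (chr10:44268358-44364291, + strand), part of the complex that lipidates ATG8 proteins, had the smallest p of the 10 genes for a genotype dependence of time. It was at 22.3, 24.2 and 26.6 CPM (lowest, median, highest) in control mice at ZT0 and at 23.3, 28.0 and 37.1 CPM at ZT12. In knockout mice it was at 31.3, 27.1, 31.2 and 25.3 CPM at ZT0 and at 24.4, 28.8, 23.4, 20.2 and 21.5 CPM at ZT12. Control mice were mostly higher at ZT12 and knockout mice mostly lower, with overlap in both genotypes. The log2 fold change was 0.28 in control mice (SE 0.11, 95% interval 0.06 to 0.51, adjusted p = 0.169) and -0.28 in knockout mice (SE 0.13, -0.53 to -0.02, adjusted p = 0.613). The difference between them was -0.56 (SE 0.17, 95% interval -0.90 to -0.22, unadjusted p = 0.00215, edgeR adjusted p = 0.442). It was negative in all 21 fits that left out 1 library, from -0.64 to -0.49, with adjusted p from 0.237 to 0.827, and DESeq2 gave an adjusted p of 0.269. Without the 4 libraries of high immunoglobulin share it was -0.37 (adjusted p = 1.00), and the control log2 fold change was 0.13 (adjusted p = 0.777). Knockout against control, *Atg5* differed by 0.25 at ZT0 (95% interval 0.0001 to 0.49, adjusted p = 0.926) and by -0.32 at ZT12 (-0.55 to -0.08, adjusted p = 0.562).

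*Atg7*, the enzyme that activates ATG8 proteins for conjugation, was at 14.2, 17.0 and 19.0 CPM in control mice at ZT0 and at 13.1, 18.6 and 21.9 CPM at ZT12 (lowest, median, highest). Knockout mice were at 17.9, 17.7, 20.8 and 17.6 CPM at ZT0 and at 16.8, 18.2, 16.9, 14.4 and 16.8 CPM at ZT12. The signs of its log2 fold changes were those of *Atg5*, at 0.12 in control mice (95% interval -0.10 to 0.35) and -0.16 in knockout mice (-0.42 to 0.11), and the difference of -0.28 had an interval of -0.63 to 0.07 (adjusted p = 0.535).

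Since Bmal1 binds E-box sequences in DNA, the promoters of the genes were searched for the palindromic core CACGTG (the same on both strands) in windows of 300 bases, from 250 before to 50 after the RefSeq start of the gene on GRCm38.p6. A window was given for 8 of the 10 genes, not for *Trp53inp1* and *Map1lc3a*. The motif occurred in the windows of *Atg5* and *Atg7*, and in 7.15% of the 32851 windows of all genes. Both windows are shown with the motif in capitals, followed by that of *Gabarap*, the gene with the smallest p in control mice, which held no match. The *Atg5* window is chr10:44268089-44268388 (+ strand), with the motif 14 bases before the start. The *Atg7* window is chr6:114670846-114671145 (+ strand), with the motif 132 bases before a start that lies 27999 bases inside the annotated gene. The *Gabarap* window is chr11:69991120-69991419 (+ strand). All but its first bases lie inside the annotated gene, which starts at 69991143, so it covers little sequence before that gene start.
Atg5: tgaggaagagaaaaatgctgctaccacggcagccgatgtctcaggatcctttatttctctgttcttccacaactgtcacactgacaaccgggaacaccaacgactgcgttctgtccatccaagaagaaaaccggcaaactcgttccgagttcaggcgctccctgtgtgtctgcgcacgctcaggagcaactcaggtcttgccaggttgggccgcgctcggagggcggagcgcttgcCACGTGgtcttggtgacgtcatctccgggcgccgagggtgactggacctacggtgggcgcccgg
Atg7: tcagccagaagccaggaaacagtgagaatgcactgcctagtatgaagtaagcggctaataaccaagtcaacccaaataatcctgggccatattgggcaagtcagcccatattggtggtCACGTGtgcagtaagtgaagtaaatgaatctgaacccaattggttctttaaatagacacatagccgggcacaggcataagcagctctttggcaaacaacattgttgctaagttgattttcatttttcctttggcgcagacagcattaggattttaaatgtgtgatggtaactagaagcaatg
Gabarap: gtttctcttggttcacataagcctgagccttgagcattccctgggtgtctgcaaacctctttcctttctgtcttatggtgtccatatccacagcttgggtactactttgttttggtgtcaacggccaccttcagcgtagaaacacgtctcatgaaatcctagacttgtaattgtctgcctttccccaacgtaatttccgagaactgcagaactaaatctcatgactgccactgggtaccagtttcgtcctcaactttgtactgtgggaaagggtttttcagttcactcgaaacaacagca
A match in these letters does not show binding, and no match says only that the letters are not in the window.

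In knockout mice none of the 10 genes was called by edgeR for time of day, where 0% of all genes were called, and DESeq2 called none, where it called 0.319%. Only *Atg5* had an unadjusted p below 0.05, against 8.01% of all genes. For the difference between the genotypes in the effect of time, edgeR and DESeq2 called none of the 10, where they called 0% and 0.0279% of all genes. *Atg5*, *Ulk1* and *Gabarap* had an unadjusted p below 0.05, against 10.8% of all genes. Knockout against control, none of the 10 was called by edgeR at ZT0, where 0.00987% of all genes were called, or at ZT12, where 0.0148% were. DESeq2 called none at either time, where it called 0.0247% and 0.0574%. *Atg5* alone had an unadjusted p below 0.05 at ZT0, against 4.9% of all genes, and again alone at ZT12, against 8.84%. The groups of each comparison overlapped for all 10 genes, while 2.63% of all genes did not overlap by time in knockout mice, 0.982% by genotype at ZT0 and 0.38% at ZT12. Each group stands in several of these comparisons, so they are not independent of each other.

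**Figure D3:**
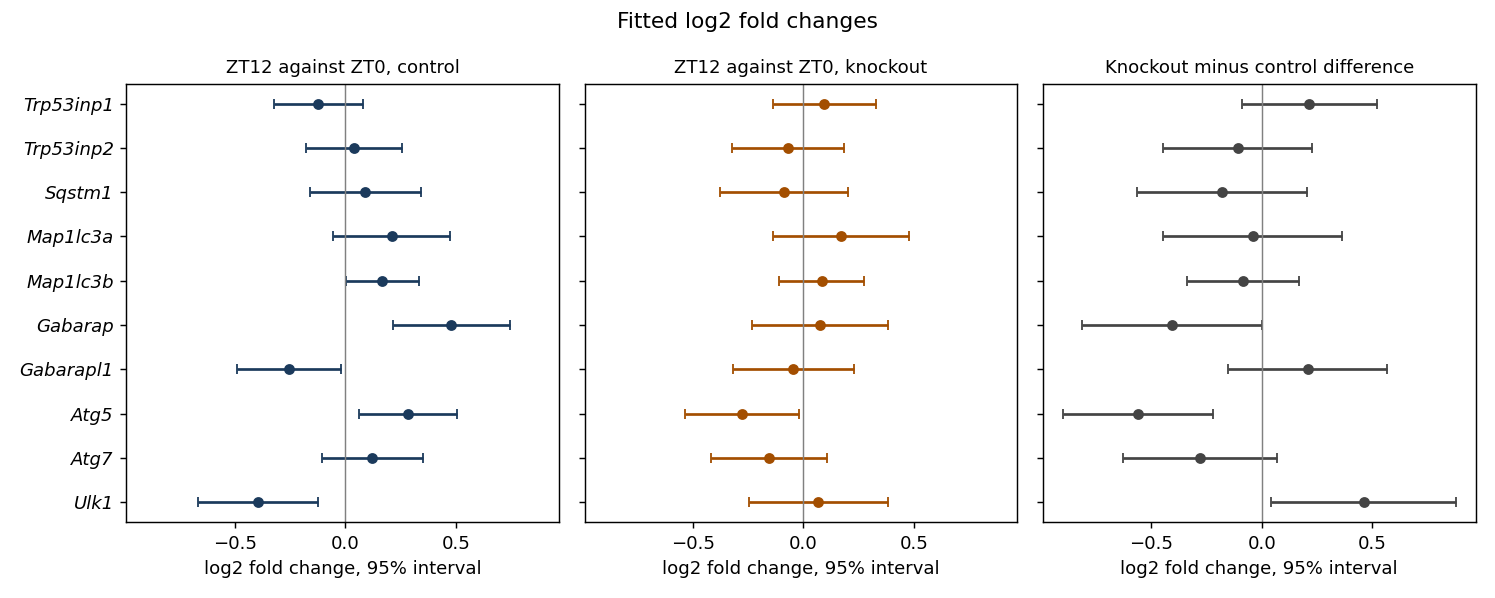
Fitted log2 fold changes of the 10 genes with 95% intervals (bars) for ZT12 against ZT0 in control mice (left), the same in knockout mice (middle) and the knockout minus control difference of both (right). The control interval lies wholly above 0 for *Gabarap*, *Atg5* and *Map1lc3b* and below 0 for *Ulk1* and *Gabarapl1*, and the right panel shows *Atg5* at -0.56.

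For several of the 10 genes, the libraries of high immunoglobulin share lay at the low or the high end of the control ZT12 group. In control ZT12 replicates 2, 4 and 5, *Ulk1* was at 41.7 to 46.7 CPM, against 48.1 to 73.0 CPM in the other 3 mice of that group and 63.0 to 74.3 CPM in control mice at ZT0. *Trp53inp1* was at 3034 to 3433 CPM in these libraries, against 3155 to 4527 CPM in the other 3. *Map1lc3b* was at 131.3 to 146.9 CPM against 109.0 to 123.1 CPM, and *Gabarap* at 89.7 to 140.7 CPM against 73.1 to 96.8 CPM. The knockout library of high share, ZT0 replicate 3, had the lowest *Ulk1* (42.2 CPM) and *Trp53inp1* (3098 CPM) and the highest *Gabarap* (92.7 CPM) of its group. With the 4 libraries left out, the control log2 fold change of *Trp53inp1* was 0.02 and that of *Map1lc3b* 0.03, and the difference between the genotypes was 0.09 for *Ulk1* and -0.08 for *Gabarap*. In an edgeR fit with the immunoglobulin share as a covariate, the control log2 fold change of *Trp53inp1* was 0.05 (adjusted p = 0.931). Other values of that fit are given below. The part of the immunoglobulin share in these differences was not tested beyond these fits.

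**Figure D4:**
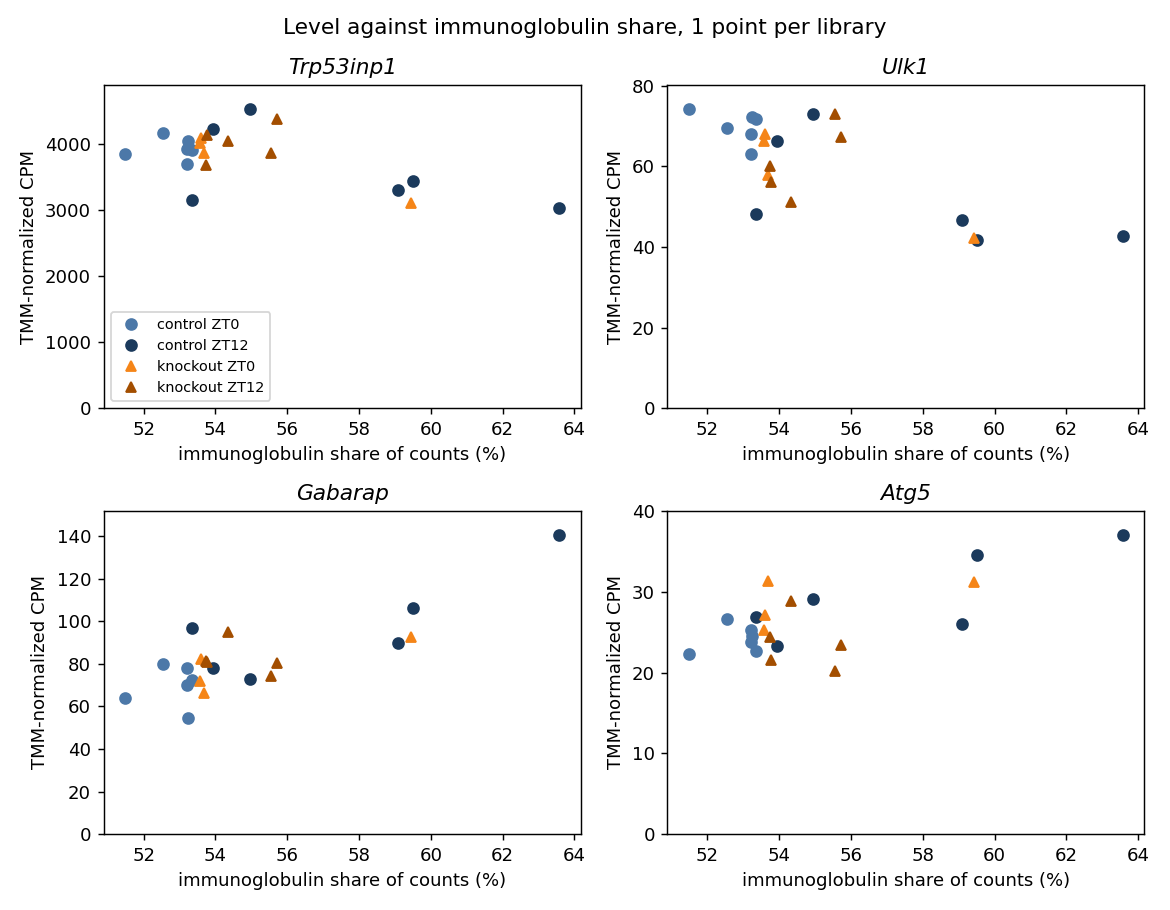
TMM-normalized CPM (axis from 0) of *Trp53inp1*, *Ulk1*, *Gabarap* and *Atg5* against the immunoglobulin share of all counts in percent, with 1 point per library, coloured by group. The 4 libraries above 57% lie at the low end for *Trp53inp1* and *Ulk1*, and the library at 63.6% is the highest for *Gabarap* and *Atg5*.

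Across the 21 libraries, the 5 genes most like *Trp53inp1* by Pearson correlation of log2 CPM, among 6367 genes with a mean of at least 10 CPM, were *Map3k1* (r = 0.92), *Hnrnpul2* (0.91), *Zfp652* (0.90), *Snx30* (0.89) and *Fli1* (0.89). Of the other 9 genes, *Ulk1* was the most like it at r = 0.80 (n = 21), above 98.0% of the 6367 genes, followed by *Gabarapl1* at 0.38. *Sqstm1* (-0.66), *Gabarap* (-0.62) and *Map1lc3b* (-0.55) had negative values, as did *Atg5*, *Trp53inp2*, *Map1lc3a* and *Atg7* (-0.49 to -0.17). These values are descriptions over libraries that differ in depth, immunoglobulin share and group, and the part of these in them was not tested.

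Beyond the 10 genes, lists of the rest of the pathway were examined. Of 28 lysosome genes, 3 rose at ZT12 in control mice and none fell with edgeR, where 0.948% of all genes were called higher and 0.78% lower, and the list's median log2 fold change was 0.20 against 0.01 over all genes. DESeq2 called 7 of the 28 higher and none lower, where it called 5.02% of all genes higher and 3.48% lower. The count moved with single libraries, as did that of all genes. All genes called ranged from 31 without control ZT0 replicate 2 to 944 without control ZT12 replicate 1, against 350 with all libraries. Of the lysosome genes, edgeR called 6 higher without control ZT12 replicate 1 or 6 and 4 without knockout ZT0 replicate 3. It called 2 without control ZT12 replicate 2 and 1 without any other single library. With scaling to library size only, 1 of the 28 was called higher and 1 lower, and the median log2 fold change of all genes was -0.20. *Lamp1*, a main glycoprotein of the lysosomal membrane, averaged 14.1 ± 1.60 CPM at ZT0 and 23.9 ± 4.68 CPM at ZT12 (SD, n = 6 each), a log2 fold change of 0.76 (SE 0.14, edgeR adjusted p = 0.0115). Its ranges of 11.7 to 16.5 and 16.3 to 28.1 CPM overlapped slightly. The call held in all 21 fits that left out 1 library. It was lost without the 4 libraries of high immunoglobulin share (0.62, adjusted p = 0.257), where fewer of all genes were called too.

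*Ctsa* (the protective protein cathepsin A) and *Lamp2* rose less, by 0.30 and 0.36 on the log2 scale (adjusted p = 0.0479 and 0.0496). Both calls were near the threshold and were lost in 18 of 21 fits that left out 1 library. *Ctsa* was at 46.6 to 53.1 CPM at ZT0 and 51.1 to 65.2 CPM at ZT12 in control mice, with a small overlap. In knockout mice *Ctsa* was at 45.4 to 50.3 CPM and 52.6 to 61.2 CPM, without overlap, where 2.63% of all genes did not overlap. Its log2 fold change there was 0.23 (adjusted p = 0.608). *Lamp1* in knockout mice was at 15.0 to 18.8 and 14.2 to 27.3 CPM, with 0.25 (adjusted p = 0.703), and its difference between the genotypes was -0.51 (95% interval -0.95 to -0.06, adjusted p = 0.444).

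In 5 lists of other autophagy genes, with 80 genes tested, 4 fell and none rose in control mice with edgeR, where 0.78% of all genes were called lower and 0.948% higher, with a median log2 fold change of -0.02. At an unadjusted p below 0.05 the count was 23, where all genes gave 18.1%. DESeq2 called 7 of 78 lower and 3 higher, where it called 3.48% and 5.02% of all genes. *Tsc1*, whose product holds MTOR in check, fell from 33.2 ± 2.00 to 23.3 ± 4.30 CPM (SD, n = 6 each), by 0.51 on the log2 scale (adjusted p = 0.0256). *Fam134b*, a receptor for autophagy of the endoplasmic reticulum, fell from 19.6 ± 2.45 to 13.6 ± 2.70 CPM, by 0.52 (adjusted p = 0.0356). Neither *Tsc1* nor *Fam134b* had overlapping groups, where 1.6% of all genes did not overlap. *Rptor*, the MTOR partner that defines complex 1, fell by 0.49 (adjusted p = 0.0408), and *Vps41*, of the tethering complex for lysosome fusion, by 0.37 (adjusted p = 0.0492). The members that fell thus include both a restraint (*Tsc1*) and a part (*Rptor*) of the MTOR complex. Of the 21 fits that left out 1 library, *Tsc1* lost its call in 5, *Fam134b* in 7, *Rptor* in 9 and *Vps41* in 19. All genes called in these fits ranged from 31 to 944, against 350 with all libraries. The count of the 80 called lower was 0 without control ZT0 replicate 1 or 2 or control ZT12 replicate 3 or 4. It was 1 without control ZT0 replicate 3 or 5 or control ZT12 replicate 2 or 5, 2 without control ZT0 replicate 4, and 6 at most, without control ZT12 replicate 6, when 2 were called higher. With scaling to library size only, 7 of the 80 were called lower, and this setting moved the median log2 fold change of all genes to -0.20. With the 2 libraries of high epithelial markers left out, 1 lysosome gene and none of the 80 was called. With the 4 libraries of high immunoglobulin share left out, which leaves 3 control ZT12 mice, none of either was called. Fewer of all genes were called in both of these fits too, as given below.

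By step of the pathway, 0 of 20 initiation genes, 0 of 10 conjugation genes, 1 of 15 receptors, 1 of 14 fusion genes and 2 of 21 genes of control by MTOR, AMPK and TFEB were called by edgeR in control mice, all lower, where 0.78% of all genes were called lower. Their median log2 fold changes were -0.10, 0.00, -0.01, -0.16 and -0.02. Lists were also examined of genes that respond to factors linked to *Trp53inp1* and *Sqstm1*. The p53 and FoxO lists also hold genes of the factors themselves. None of 24 genes of the p53 list, 17 of the FoxO list and 14 of the Nrf2 list was called by edgeR in control mice. Their medians were 0.05, -0.19 and 0.14, and 3, 4 and 1 of them had an unadjusted p below 0.05, against 18.1% of all genes. DESeq2 called 2 of 24, 1 of 16 and 0 of 12, all higher, where it called 5.02% of all genes higher.

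In the other 4 comparisons neither edgeR nor DESeq2 called a gene of any of these lists. Of all genes, edgeR called 0% for time in knockout mice and 0% for the difference between the genotypes. It called 0.00987% for genotype at ZT0 and 0.0148% at ZT12. DESeq2 called 0.319%, 0.0279%, 0.0247% and 0.0574% in the same order. At an unadjusted p below 0.05 the 80 autophagy genes gave 7 for time in knockout mice, 16 for the difference between the genotypes, 3 for genotype at ZT0 and 9 at ZT12, and the 28 lysosome genes gave 2, 5, 1 and 3, where all genes gave 8.01%, 10.8%, 4.9% and 8.84%. For time in knockout mice the smallest p in each direction belonged to *Deptor*, *Hmox1* and *Atg13* with positive and *Klf2*, *Tfeb* and *Tnfrsf10b* with negative values (adjusted p from 0.515 to 0.613). For the difference between the genotypes they belonged to *Snap29* (0.48), *Vps41* (0.43) and *Atg9a* (0.64) with positive and *Klf2* (-0.94), *Vmp1* (-1.22) and *Tnfrsf10b* (-1.37) with negative log2 values, all at an adjusted p of 0.442. Knockout against control they were *Bcl2l11*, *Ctss* and *Mitf* with positive and *Tsc1*, *Fas* and *Snap29* with negative values at ZT0 (adjusted p = 0.926), and *Atl3*, *Atg9a* and *Snap29* with positive and *Klf2*, *Hexa* and *Gclm* with negative values at ZT12 (adjusted p = 0.562).

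**Figure D5:**
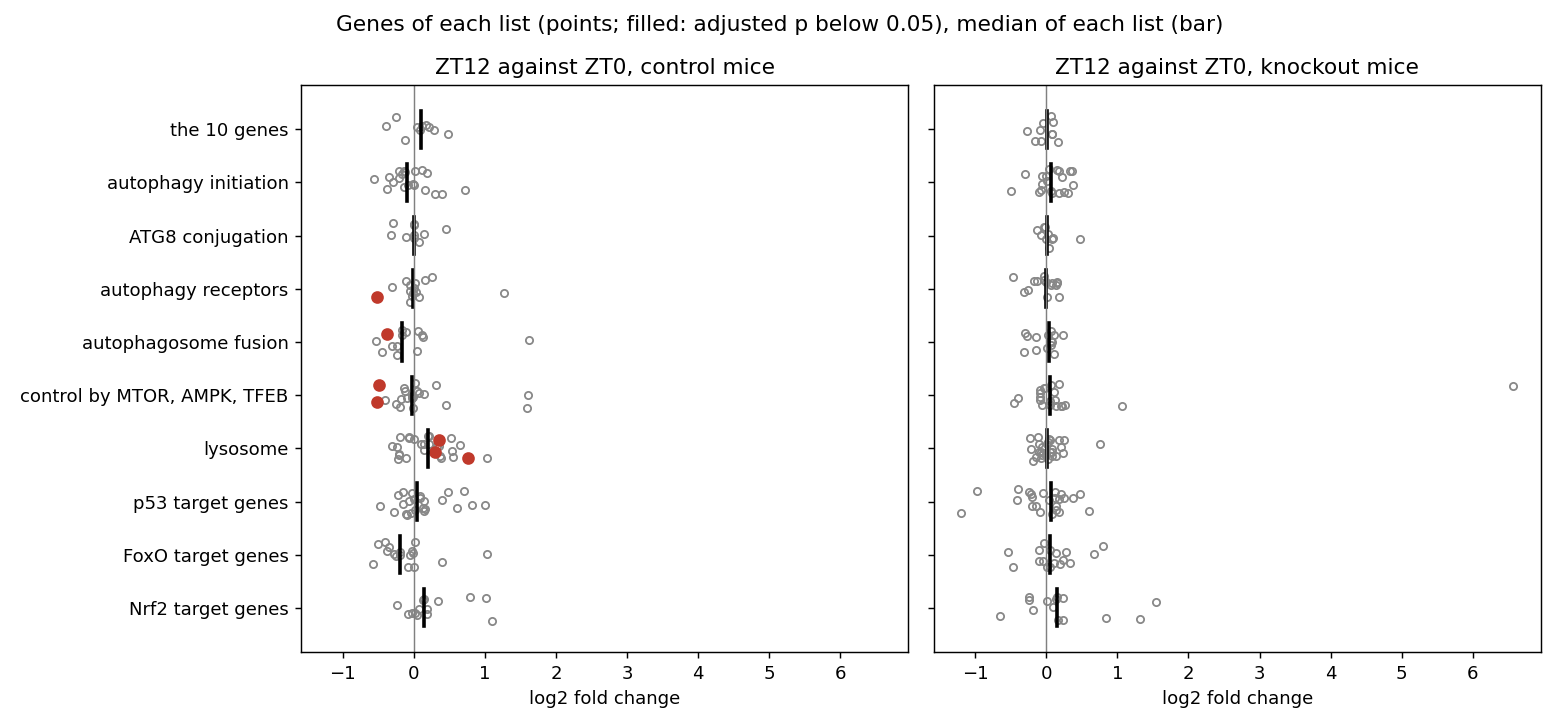
Log2 fold change of ZT12 against ZT0 for the genes of each list (points) in control mice (left) and knockout mice (right), with the median of each list (bar) and genes at an adjusted p below 0.05 filled. Filled points appear in control mice only, 3 lysosome genes above 0 and 4 autophagy genes below 0; the far right point in knockout mice is *Prkaa2*, which had no count in the 4 ZT0 libraries, so its position is no measure of size.

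The epithelial markers had a median log2 fold change of 2.62 in control and 2.61 in knockout mice, with 10 of 16 and 1 of 16 at an unadjusted p below 0.05, where all genes gave 18.1% and 8.01%. These values include 1 ZT12 library per genotype with a high marker sum. The sums were 1140 CPM in control ZT12 replicate 5 and 676 CPM in knockout ZT12 replicate 5, against at most 281 CPM elsewhere. None of the epithelial markers was called by edgeR, and DESeq2 called 3 of 13 higher in control mice, where it called 5.02% of all genes higher. The 12 genes of the response to tissue dissociation summed to 2868 to 9493 CPM per library, with a median of 0.67 in control mice and -0.53 in knockout mice, and 8 of 12 had an unadjusted p below 0.05 for the difference between the genotypes, all negative, where 5.63% of all genes had such a p with a negative value. The sums of T cell markers (29.7 to 64.7 CPM) and myeloid markers (21.3 to 138.3 CPM) were low in every library. The part of the T cell markers, the myeloid markers and the dissociation response in the values of the 10 genes was not tested. For the epithelial markers, fits with their level as a covariate or without the libraries of high marker sum are given below.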

How the data were processed

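RNA of IgA+ PCs was measured in 21 mice, 1 library per mouse. The authors sequenced poly-A RNA as paired 150-base reads and deposited raw read counts per gene, whole numbers without normalization. The submitters' processing notes name DESeq2; the aligner, counter and strand setting are not given in the sources used here. Gene coordinates were those of GRCm38: 52056 of 53620 genes matched by ID to GENCODE M21 had the same position, all 10 genes among them.

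Genes with a total under 10 counts were removed, TMM factors computed and edgeR 4.0.16 (R 4.3.3) fitted with robust quasi-likelihood to 4 group means. P-values were adjusted over all genes tested (Benjamini-Hochberg, called below 0.05). Alternatives were DESeq2 1.42.0, its size factors, library size only, immunoglobulin genes removed, no filter, filterByExpr, a threshold of 0.01, separate fits, a replicate block, covariates (immunoglobulin share, epithelial markers), removal of a length trend (lowess, span 0.5) and each library left out. Leaving out the 4 libraries of high immunoglobulin share or the 2 of high epithelial markers was added after seeing the data.

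The genes and lists were chosen with earlier results of these data known. Named beyond the 10 were list genes called in a comparison or, with fewer than 3 called, the 3 of smallest p per direction, *Arntl*, *Cd79a*, PC markers and the 5 genes most like *Trp53inp1*. One lysosome gene is not reported here, for a reason unrelated to its values, and the counts of its list leave it out. *Prkaa2* and the neighbours in rank were named after seeing their values. Scripts were tested on simulated data. The 46 pairs within groups differed beyond sampling noise (chi-square per gene 29.5 to 242). The lowest count of the 10 genes in a library was 179.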

Additional observations from a re-analysis of the deposited data

Results flagged for a closer look

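Of 40 sets of values (10 genes in 4 groups), 1 held a sample that stood far from the others of its group: *Atg7* was at 20.8 CPM in knockout ZT0 replicate 3, against 17.6 to 17.9 CPM in the other 3 mice. That library has a high immunoglobulin share (59.4%) and was also at an extreme of its group for *Ulk1*, *Trp53inp1* and *Gabarap*. The gap that counts as far (Dixon's critical value for the size of the group) is set so that chance flags about 1 in 20 sets. The 40 sets come from the same 21 libraries and are not independent of each other.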

How the results depend on the processing

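None of the 10 genes changed its side of the threshold in any comparison under any setting, apart from *Gabarap* and *Ulk1* in control mice. *Gabarap* was called with DESeq2, where 8.5% of all genes were called. It was also called with DESeq2 size factors (0.51, adjusted p = 0.0447), with immunoglobulin genes removed (0.48, adjusted p = 0.0467) and with filterByExpr. The shares of all genes called in those settings are not given here, so these calls are not set against them. Leaving out 1 library gave 0 to 2 of the 10 in control mice (2 without control ZT12 replicate 1) and 0 in every other comparison. Without control ZT12 replicate 1, 944 of all genes were called in control mice, against 350 with all libraries. The cause was not tested. *Trp53inp1* had 42882 or more counts per library, while *Atg7* and *Gabarapl1* had as few as 180 and 179. The part of depth was not tested.

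In control mice, where 350 genes were called, the count of all genes was 1052 with DESeq2, 38 with separate fits, 179 with the replicate block, 0 with the immunoglobulin share and 131 with the epithelial marker level as a covariate, 150 without the 2 libraries of high epithelial markers, 12 without the 4 of high immunoglobulin share, and 14 at a threshold of 0.01. Without 1 library it ranged from 31 (control ZT0 replicate 2) to 944 (control ZT12 replicate 1). In knockout mice, where 0 were called, it was 47 with DESeq2, 1 without a count filter, with the immunoglobulin covariate or without the epithelial-high libraries, 3 without the immunoglobulin-high libraries, and 0 to 1 without 1 library. For the genotype difference in time, where 0 were called, it was 4 with DESeq2, 1 with the length trend removed and 0 to 1 without 1 library. Knockout against control, DESeq2 called 5 at ZT0 and 8 at ZT12, removal of the length trend 4 at ZT0, and fits without 1 library 2 to 3 at ZT0 and 2 to 4 at ZT12. Same-numbered mice of different groups did not vary together (28 correlations from -0.31 to 0.35, median -0.02, 7 over 0.1), so replicate numbers were not taken as pairs; the replicate block called none of the 10 genes, 1 lysosome gene (3 without it) and 2 of the 80 other autophagy genes (4 without it).

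Signs turned for the log2 fold changes given next, none of which was called on either side. Library size only moves the median of all genes to -0.20 for time in control mice and to 0.19 in the genotype difference. Library size only gave -0.17 for *Trp53inp2*, -0.13 for *Sqstm1*, -0.0163 for *Map1lc3a*, -0.0557 for *Map1lc3b* and -0.091 for *Atg7* (time in control mice), 0.0767 for *Trp53inp2*, 0.0138 for *Sqstm1*, 0.18 for *Map1lc3a*, 0.12 for *Map1lc3b*, 0.11 for *Ctsa* and 0.0348 for *Lamp2* (the genotype difference), -0.0447 for *Map1lc3a* and -0.0277 for *Map1lc3b* (genotype at ZT0), 0.13 for *Map1lc3a*, 0.0874 for *Map1lc3b* and 0.0092 for *Atg7* (genotype at ZT12). The immunoglobulin covariate gave 0.0514 for *Trp53inp1*, -0.0486 for *Sqstm1* and -0.0536 for *Map1lc3a* (time in control mice), 0.26 for *Map1lc3a*, 0.0722 for *Map1lc3b* and 0.0576 for *Lamp2* (the genotype difference), 0.0184 for *Trp53inp1*, -0.11 for *Map1lc3a* and -0.0399 for *Map1lc3b* (genotype at ZT0), 0.15 for *Map1lc3a* and 0.0323 for *Map1lc3b* (genotype at ZT12). Leaving out the 4 immunoglobulin-high libraries gave 0.0177 for *Trp53inp1*, -0.0269 for *Trp53inp2* and -0.0133 for *Sqstm1* (time in control mice), -0.065 for *Ulk1* (time in knockout mice), -0.0091 for *Trp53inp1*, 0.0021 for *Trp53inp2*, 0.23 for *Map1lc3a*, 0.0701 for *Map1lc3b* and 0.0532 for *Lamp2* (the genotype difference), 0.026 for *Trp53inp1* and -0.0893 for *Map1lc3a* (genotype at ZT0), 0.14 for *Map1lc3a*, 0.0813 for *Map1lc3b* and -0.0254 for *Ulk1* (genotype at ZT12). Removal of the length trend gave -0.0173 for *Map1lc3a* (time in control mice), 0.24 for *Map1lc3a* (the genotype difference), 0.014 for *Trp53inp2* and -0.083 for *Map1lc3a* (genotype at ZT0), 0.15 for *Map1lc3a* (genotype at ZT12). The epithelial covariate gave 0.0646 for *Gabarapl1* and 0.0058 for *Rptor* (time in knockout mice). The replicate block gave -0.0152 for *Map1lc3a* (genotype at ZT0).

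Without 1 library, signs also turned. For time in control mice, *Trp53inp2* ranged from -0.0353 to 0.11. For time in knockout mice, *Sqstm1* ranged from -0.21 to 0.0025, *Gabarap* from -0.0032 to 0.17, *Gabarapl1* from -0.11 to 0.0005, *Ulk1* from -0.0609 to 0.13, *Tsc1* from -0.18 to 0.0236, *Rptor* from -0.12 to 0.0396 and *Vps41* from -0.0147 to 0.0934. For the genotype difference, *Map1lc3a* ranged from -0.14 to 0.0734. For genotype at ZT0, *Trp53inp1* ranged from -0.0938 to 0.0208, *Trp53inp2* from -0.0704 to 0.0494, *Sqstm1* from -0.12 to 0.0868 and *Map1lc3a* from -0.0936 to 0.11. For genotype at ZT12, *Map1lc3a* ranged from -0.0882 to 0.0371.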
